A study of Mus musculus with 8 samples.

Results

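Microglia are the resident macrophages of the brain, and the 38 genes described here are those that tell these cells apart from neurons and from the other glia, or that carry out their main tasks. They were taken by name from a list of homeostatic, complement, receptor and lysosomal genes by which microglia are commonly recognised. A few of them are expressed by other brain cells too. No measured value enters the rule, but the members were chosen with earlier results of these data known. All 38 were found among the 53379 genes of the count table, and all 38 had enough reads to stand among the 16914 genes tested. The samples are cingulate cortex of untreated male mice on a C57BL/6 background, 4 with both copies of *Mvp* (WT) and 4 without it (Mvp KO). *Mvp* encodes the major vault protein, the chief component of the vault particle. The knockout is a constitutive gene trap, with a β-geo cassette in intron 1 of *Mvp*, and was made from a gene trap clone without the use of a Cre. The age of the mice used for sequencing is not given in the sources used here, and the labels do not tie a sample to an animal, so the p values measure the spread between these samples. *Mvp* itself was at 6.83 ± 1 CPM (counts scaled to a common library size) in WT and 1.63 ± 0.334 CPM in Mvp KO (SD, n = 4 each) and was lower in every Mvp KO sample than in every WT sample.

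Microglia enter the brain early in development and keep their number by dividing in place. Signals from the surrounding tissue hold them in a surveying state: colony stimulating factor 1 and interleukin 34 act on the receptor CSF1R, transforming growth factor beta acts on TGFBR1, and fractalkine released by neurons acts on CX3CR1. In this state they express purinergic receptors that sense nucleotides from injured cells, complement C1q, which tags synapses and debris, and receptors that recognise lipids, sialic acids and antibodies. When they are activated, several homeostatic genes are known to go down while lysosomal and inflammatory genes go up. In bulk tissue, fewer microglia and less RNA per microglial cell cannot be told apart.

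The promoters of the genes on which the comparison between genotypes turns are shown first, because the transcription factor PU.1, encoded by the member *Spi1*, is known to bind the promoters and enhancers of many microglial genes. The sequences are those of RefSeq on GRCm38.p6, run 5′ to 3′ on the strand of the gene, and cover 250 bases before and 50 bases after the annotated start. Capitals mark AGGAAGT, the core of the PU.1 site, or ACTTCCT, the same letters on the other strand. *Fcrls*, *Siglech* and *Tgfbr1* were chosen because they had the clearest differences between genotypes, and *C1qb* and *C1qc* because they are neighbours whose levels went up and down together.
Fcrls, chr3:87263475-87263774, minus strand: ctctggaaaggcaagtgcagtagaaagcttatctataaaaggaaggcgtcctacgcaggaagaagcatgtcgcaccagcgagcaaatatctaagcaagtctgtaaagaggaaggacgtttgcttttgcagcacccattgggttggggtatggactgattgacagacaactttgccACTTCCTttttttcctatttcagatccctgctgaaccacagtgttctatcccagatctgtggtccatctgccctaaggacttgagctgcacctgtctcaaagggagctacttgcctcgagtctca
Siglech, chr7:55767934-55768233, plus strand: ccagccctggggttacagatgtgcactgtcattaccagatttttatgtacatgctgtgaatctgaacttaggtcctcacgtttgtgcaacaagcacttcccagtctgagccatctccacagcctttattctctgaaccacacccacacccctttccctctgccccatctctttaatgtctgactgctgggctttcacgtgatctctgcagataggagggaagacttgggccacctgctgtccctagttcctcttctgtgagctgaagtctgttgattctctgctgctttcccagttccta
Tgfbr1, chr4:47352972-47353271, plus strand: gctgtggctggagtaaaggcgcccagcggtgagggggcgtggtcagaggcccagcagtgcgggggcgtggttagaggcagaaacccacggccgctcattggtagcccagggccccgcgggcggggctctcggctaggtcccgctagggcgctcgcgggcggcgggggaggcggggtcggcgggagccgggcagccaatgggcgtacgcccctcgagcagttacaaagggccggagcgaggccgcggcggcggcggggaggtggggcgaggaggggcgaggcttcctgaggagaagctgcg
C1qb, chr4:136886151-136886450, minus strand: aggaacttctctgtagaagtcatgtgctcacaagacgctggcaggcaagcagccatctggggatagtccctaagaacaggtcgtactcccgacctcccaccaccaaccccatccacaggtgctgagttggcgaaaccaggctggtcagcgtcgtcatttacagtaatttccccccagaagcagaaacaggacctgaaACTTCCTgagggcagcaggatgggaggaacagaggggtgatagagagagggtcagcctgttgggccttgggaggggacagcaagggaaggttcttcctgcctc
C1qc, chr4:136892865-136893164, minus strand: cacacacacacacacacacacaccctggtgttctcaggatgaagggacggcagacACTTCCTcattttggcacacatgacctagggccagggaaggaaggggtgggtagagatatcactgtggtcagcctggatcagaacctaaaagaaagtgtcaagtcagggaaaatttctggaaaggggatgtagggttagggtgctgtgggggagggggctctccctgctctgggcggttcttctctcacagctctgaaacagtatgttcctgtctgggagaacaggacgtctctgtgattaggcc
The match in *Fcrls* begins 75 bases before the start, that in *C1qb* 53 bases before it and that in *C1qc* 195 bases before it, all on the strand opposite to the gene. The window of *Siglech* and the one shown for *Tgfbr1*, which is rich in C and G, hold no such match.

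A promoter window was given for 30 of the 38 members. The genes without one were *P2ry6*, *Tmem119*, *Gpr34*, *Selplg*, *Csf1r*, *Tyrobp*, *C1qa* and *Spi1*. Over the 27025 genes with a window, 7 sets of letters were searched on both strands, and a gene counted as holding one if any of its windows did. The 7 letters AGGAAGT were held by 11 of 30 members (36.7%) and 10.7% of all genes. Among the members these were *P2ry12*, *Fcrls*, *Slco2b1*, *Hpgds*, *Inpp5d*, *C1qb*, *C1qc*, *Ptprc*, *Cd53*, *Ctss* and *Sall1*. The longer form GAGGAAGT was held by 6 of 30 members (20%) and 3.69% of all genes, and the shorter form GGAAGT, which lies inside both, by 16 of 30 members (53.3%) and 26.5% of all genes. Letters of other factors known from microglia stood nearer to the share over all genes. TTGCNNAA, the core of C/EBP sites, was held by 6 of 30 members (20%) and 12.2% of all genes. The element GAAANNGAAA of interferon regulatory factors was held by 2 of 30 members (6.67%) and 3.99% of all genes, the composite PU.1 and IRF element GGAANNGAAA by 1 of 30 members (3.33%) and 3.16% of all genes, and the MEF2 element CTANNNNTAG by 1 of 30 members (3.33%) and 4.23% of all genes. GGAANNGAAA can overlap with GAAANNGAAA. These shares describe letters in a window, and no test was made of them, since they had been seen when the sets to be shown were chosen.

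In the tissue as a whole the members took up a small share of the RNA. Between 0.0889% and 0.1003% of the counts of a sample fell on the 38 genes, out of totals from 28456504 to 42854368 counts, and the lowest count of any member in any sample was 46. To order the genes by level, CPM were divided by the length of all annotated exons of the gene in kilobases. The highest level per length was that of *Ctss*, which encodes the protease cathepsin S, at 56.6 CPM per kilobase over all samples (range 49.5 to 61.8). *Lgmn*, which encodes the lysosomal protease legumain, followed at 50.6 (range 45.7 to 59.2), and these 2 lysosomal genes overlapped. The chains of C1q came next, *C1qa* at 40.2 and *C1qb* at 33.6 CPM per kilobase, whose ranges of 35.7 to 46.9 and 28.6 to 38.1 also overlapped. *C1qc* stood below both at 18.9 CPM per kilobase (range 16.3 to 20.9), and shared its range with the adaptor gene *Tyrobp* at 18.3, the purinergic receptor gene *P2ry12* at 16.2 and *Csf1r* at 16.01. *Mertk*, *Cx3cr1* and *Fcrls* lay between 10.3 and 13.95 CPM per kilobase. At the other end were *Plcg2* at 0.835, *Spi1* at 0.791, *P2ry6* at 0.672, *Irf8* at 0.542 and *Ptprc* at 0.2405 CPM per kilobase. Annotated exons include those of rare transcripts, which lowers the level per length of genes with many of them, and for *Ptprc* they add up to 18313 bases. Of the exonic bases of *Itgam*, 68.7% are also annotated to the gene *Gm49368* on the same strand, so that its reads may have been left out of the counts. For *Csf1r*, 15.1% of the exonic bases face a gene on the other strand.

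**Figure D1:**
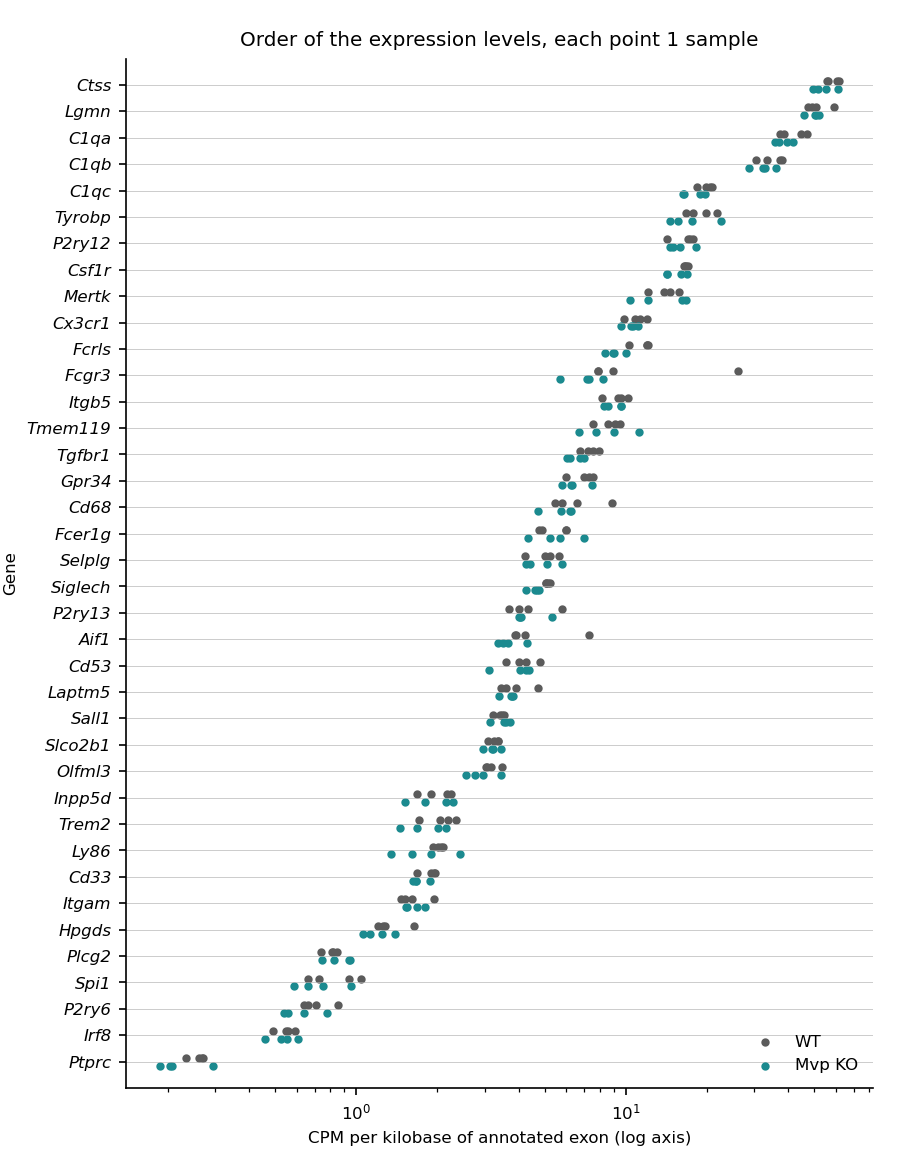
Level of the 38 microglia identity genes in CPM per kilobase of annotated exon on a log axis, each point 1 sample of WT (grey) or Mvp KO (teal). *Ctss* and *Lgmn* stand at the top, at 56.6 and 50.6 CPM per kilobase over all samples, and *Ptprc* at the bottom at 0.2405.

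The comparison between Mvp KO and WT asked whether loss of the major vault protein goes along with a change of these genes in a region of the brain where the study examined the anatomy of the knockout. By the quasi-likelihood test of edgeR, adjusted after Benjamini and Hochberg for all genes tested, 0 of the 38 members passed an adjusted p of 0.05, where 0.00591% of all genes did, and the lowest adjusted p of a member was 0.969. The 1 gene that passed was *Mvp*. Its log2 fold change, Mvp KO over WT, was -2.06 (standard error 0.186), with an unadjusted p of 9.6e-07 and an adjusted p of 0.0162 by edgeR's quasi-likelihood test. DESeq2's Wald test and limma voom also called 0 members, and each called only 2 of the 16914 genes. Without adjustment, 2 members had p under 0.05 and were lower in Mvp KO (5.26% of members, against 0.863% of all genes), and 0 were higher (against 0.698% of all genes). DESeq2's Wald test gave 4 and limma voom 5 members with an unadjusted p under 0.05, all lower in Mvp KO (10.5% and 13.2% of members, against 0.922% and 2.23% of all genes in the same fits). *Fcrls* and *Siglech*, 5.26% of members, had every Mvp KO sample below every WT sample, which held for 0.692% of all genes. In 0 members was every Mvp KO sample above every WT sample, against 0.828% of all genes.

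Small differences in the same direction ran through most of the list. The fitted log2 fold change, Mvp KO over WT, was below 0 for 34 of the 38 members (89.5%), against 50% of all genes, and its median was -0.11 over the members and 0.00 over all genes. The 4 members above 0 were *Plcg2* (0.10), *Fcer1g* (0.04), *Sall1* (0.03) and *Itgam* (0.00). Members of 1 cell type are measured in the same 8 samples and can move together with its share of the tissue. The 34 genes below 0 are therefore not 34 separate observations. Summed over the members, expression was 981, 989.6, 934 and 998 CPM in WT replicates 1 to 4 and 919.8, 878, 895 and 926 CPM in Mvp KO replicates 1 to 4. The 2 ranges did not overlap, and the mean of Mvp KO was 0.927 times that of WT. This separation depends on the scaling of the libraries: as a share of all counts, an alternative chosen after seeing the data, the members made up 0.0905% to 0.1003% in WT and 0.0889% to 0.0966% in Mvp KO, which overlap, and the ratio of the means was 0.958. A sample's median member, relative to the geometric mean over the samples, was lowest in Mvp KO replicate 3 at -0.15 on the log2 scale, and 18 of the 38 members had their lowest value there. In WT replicates 1 and 2 it was highest, at 0.09 in each. WT replicate 3 (-0.02) was below Mvp KO replicate 1 (0.03), so on this measure the genotypes overlapped.

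The data set a limit on the size of most of these differences. For 32 of the 38 members (84.2%) the 95% interval of Mvp KO over WT stayed inside 1.5-fold either way, against 64.5% of all genes. The exceptions were *P2ry6*, *Fcgr3*, *Ptprc*, *Aif1*, *Cd68* and *Spi1*, whose intervals reached below that fold. Replicates of the members varied by a median of 10.02% (coefficient of variation) in WT and 11.4% in Mvp KO, against 14.4% and 10.9% over all genes tested. Without WT replicate 4 the WT values were 7.07% for the members and 7.67% over all genes.

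**Figure D2:**
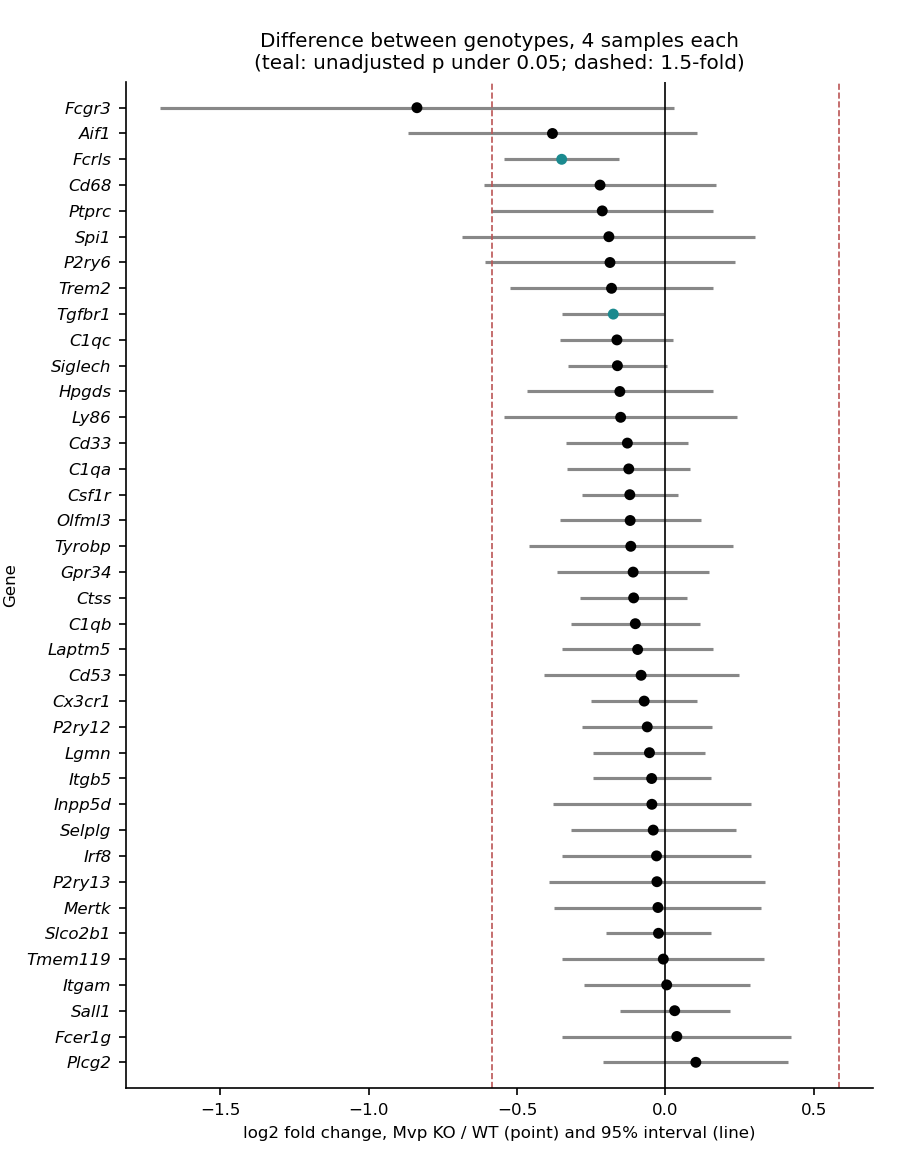
Log2 fold change of each microglia identity gene, Mvp KO over WT, with its 95% interval from edgeR's quasi-likelihood fit (4 samples per genotype), in order of size. Most points lie left of 0, from -0.84 for *Fcgr3* to 0.10 for *Plcg2*, and the interval leaves out 0 only for *Fcrls* and *Tgfbr1* (teal).

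Among the 9 genes for homeostatic surface and secreted proteins, *Fcrls* had the smallest p of all members. *Fcrls* (ENSMUSG00000015852) encodes an Fc receptor-like protein that marks mouse microglia against blood monocytes, and lies on chromosome 3. Its expression was 28.2, 27.98, 24 and 27.8 CPM in WT replicates 1 to 4 and 19.5, 21.03, 20.9 and 23.4 CPM in Mvp KO replicates 1 to 4. The lowest WT sample, replicate 3, was just above the highest Mvp KO sample, replicate 4. The means were 27 ± 2.01 CPM in WT and 21.2 ± 1.595 CPM in Mvp KO (SD, n = 4 each), a log2 fold change of -0.35 (standard error 0.0861) with a 95% interval of -0.54 to -0.16. The unadjusted p was 0.00256 and the adjusted p 0.969 by edgeR's quasi-likelihood test. The unadjusted p of *Fcrls* was under 0.05 in all 15 fits, the alternatives included. It lay between 0.000443 and 0.01001 in edgeR, DESeq2 and limma fits, and the adjusted p stayed at or above 0.846. In a single fit 1.13% to 3.25% of all genes had an unadjusted p under 0.05, and the share with one in every fit was not counted. The fits reuse the same samples and *Fcrls* was singled out by its p, so the fits are not separate observations. *Fcrls* was also low beside the rest of the list: its share of the members' summed CPM was 2.87%, 2.83%, 2.57% and 2.79% in WT and 2.12%, 2.395%, 2.33% and 2.52% in Mvp KO. These shares did not overlap either. As a log2 difference from the mean of the other 37 members, *Fcrls* was 0.77 in WT and 0.54 in Mvp KO. On this scale too every Mvp KO sample of *Fcrls* was below every WT sample (2.63% of members, against 0.130% of all genes set against the members' mean). That mean was itself lower in Mvp KO, which moves every gene up in Mvp KO on this scale. The share of all genes below is therefore smaller than in CPM (0.692%), and the share above larger (4.10%, against 0.828% in CPM). For *Plcg2* and *Sall1* every Mvp KO sample was above every WT sample on this scale only (5.26% of members, against 4.10% of all genes), for *Plcg2* by so little that the nearest samples both stood at -2.16. They were 0.22 and 0.15 higher in Mvp KO relative to the other members.

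*Siglech*, which encodes a sialic acid-binding lectin used as a marker of mouse microglia, was the other gene with separate genotypes. It was at 17.4, 17.04, 17.1 and 17.6 CPM in WT replicates 1 to 4 and 16.1, 14.4, 15.5 and 15.8 CPM in Mvp KO replicates 1 to 4. Its 4 WT samples lay closer together than those of nearly every other member, with a coefficient of variation of 1.495%. They held 555 to 740 counts, which counting alone spreads by more than this on average. The closeness therefore does not show a steady gene, and the separation of the genotypes rests in part on it. The log2 fold change was -0.16 (standard error 0.0748), with an unadjusted p of 0.0571 and an adjusted p of 0.969 by edgeR's quasi-likelihood test. *Tmem119*, a membrane protein gene used as a marker of microglia, was at 22, 19.9, 21.1 and 17.5 CPM in WT and 17.9, 15.5, 20.9 and 25.9 CPM in Mvp KO. The Mvp KO samples of *Tmem119* spanned the WT range on both sides, from replicate 2 at the bottom to replicate 4 at the top. *Cx3cr1*, the fractalkine receptor gene, was at 48.6, 50.8, 44.2 and 53.8 CPM in WT and 46.9, 47.9, 43.2 and 49.9 CPM in Mvp KO. Its genotypes overlapped widely, with the 95% interval of the log2 fold change at -0.25 to 0.11. *Gpr34*, which encodes a receptor for lysophosphatidylserine, was at 15.8, 15.3, 12.5 and 14.6 CPM in WT and 13.2, 15.7, 12.1 and 13.1 CPM in Mvp KO. *Olfml3*, for a secreted matrix protein, was at 19.5, 21.3, 18.6 and 18.9 CPM in WT and 21.2, 18.1, 15.7 and 17.02 CPM in Mvp KO. For both genes WT replicate 3 and Mvp KO replicate 3 were low within their genotype. *Selplg*, for the selectin ligand PSGL-1, was at 24.2, 21.3, 22.3 and 18.1 CPM in WT and 18.2, 18.9, 21.7 and 24.7 CPM in Mvp KO. *Slco2b1*, an organic anion transporter gene, was at 19.3, 19.9, 18.3 and 19.97 CPM in WT and 20.5, 17.6, 19.1 and 19.1 CPM in Mvp KO. The samples of *Slco2b1* were among the steadiest of the list and overlapped. *Hpgds*, the gene of the hematopoietic prostaglandin D synthase, was at 8.05, 7.76, 8.21 and 10.5 CPM in WT and 8.01, 8.96, 6.79 and 7.23 CPM in Mvp KO, highest in WT replicate 4.

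The 3 purinergic receptors sense extracellular nucleotides. *P2ry12*, whose product draws microglial processes towards ADP, was at 43.4, 45.3, 36.1 and 44.1 CPM in WT and 40.4, 46.3, 38.1 and 37.1 CPM in Mvp KO. The highest value, in Mvp KO replicate 2, and the lowest, in WT replicate 3, both went against a lower level in Mvp KO. *P2ry13*, another ADP receptor gene, was at 10.9, 10.1, 9.33 and 14.7 CPM in WT and 10.2, 13.4, 10.2 and 10.3 CPM in Mvp KO. It was highest in WT replicate 4 and Mvp KO replicate 2, and without WT replicate 4 its log2 fold change went from -0.03 to 0.13. *P2ry6*, the gene of a UDP receptor linked to phagocytosis, was far lower at 2.48, 2.05, 1.84 and 1.905 CPM in WT and 2.24, 1.55, 1.84 and 1.61 CPM in Mvp KO, with overlap. *P2ry12* and *P2ry13* lie within 54980 bases of each other on chromosome 3. Over the 8 samples their log2 levels had a Pearson's r of 0.67 (exact permutation p = 0.0699, Benjamini-Hochberg adjusted over 6 pairs 0.0839) and a Spearman's rho of 0.52 (exact permutation p = 0.197, adjusted 0.197). Without the 2 samples farthest from the median, r was 0.55.

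Of the 3 growth factor and phagocytic receptors, *Tgfbr1* had the second smallest p of the list. It encodes the type I receptor of transforming growth factor beta, which microglia need for their homeostatic state, and other brain cells also express it. *Tgfbr1* was at 47.1, 49.3, 44.1 and 51.7 CPM in WT replicates 1 to 4 and 45.7, 39.6, 44.1 and 40.7 CPM in Mvp KO replicates 1 to 4. WT replicate 3 lay among the Mvp KO samples, so the genotypes overlapped. The log2 fold change was -0.18 (standard error 0.0764), unadjusted p 0.0455 and adjusted p 0.969 by edgeR's quasi-likelihood test, and without WT replicate 4 it was -0.14 with an unadjusted p of 0.0878 in the same fit. *Csf1r*, the gene of the receptor on which microglia depend for survival, was at 97.8, 96.1, 95.1 and 95.95 CPM in WT and 81.8, 82.2, 92.8 and 97.4 CPM in Mvp KO. All 4 WT samples lay close together, and Mvp KO replicates 1 and 2 stood furthest below them, replicate 3 just below, and replicate 4 among them. The WT coefficient of variation was 1.205% at 3022 to 4175 counts, which counting alone spreads by more than this on average. The closeness of the WT samples therefore does not show a steady gene. The log2 fold change of *Csf1r* was -0.12 (standard error 0.0725), with an unadjusted p of 0.1304 by edgeR's quasi-likelihood test. *Mertk*, for a receptor that takes up dying cells and that astrocytes express too, was at 60.2, 63.2, 68.1 and 52.5 CPM in WT and 44.8, 52.6, 72.6 and 69.9 CPM in Mvp KO. Mvp KO replicates 1 and 2 were again the lower ones of their genotype, and replicates 3 and 4 were above every WT sample. *Csf1r* and *Cx3cr1*, both abundant receptor genes of microglia, had a Pearson's r of 0.26 over the 8 samples (exact permutation p = 0.546, adjusted 0.546) and a Spearman's rho of 0.57 (exact permutation p = 0.151, adjusted 0.181). Without Mvp KO replicates 1 and 2, the farthest from the median of *Csf1r*, r was 0.65.

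Mvp KO replicates 1 and 2 also had the most RNA of oligodendrocytes. The 5 markers *Mbp*, *Mog*, *Mag*, *Cnp* and *Mobp* summed to 1128, 1413, 1823 and 829 CPM in WT replicates 1 to 4 and 3635, 2470, 1265 and 992 CPM in Mvp KO replicates 1 to 4, none of them past an adjusted p of 0.05 (0 of 5 with an unadjusted p under 0.05 as well in the edgeR fit). The part of this in the lower values of *Csf1r* and *Mertk* was not tested.

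**Figure D3:**
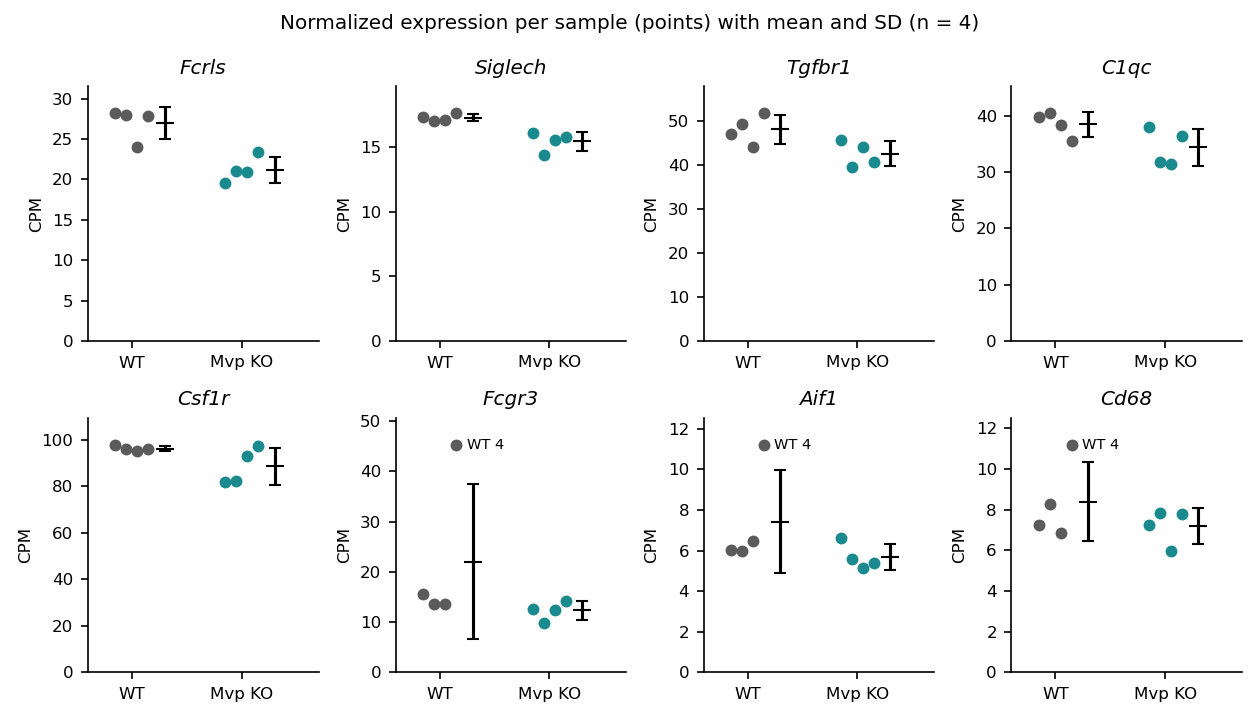
CPM of 8 microglia identity genes in each sample (points, in replicate order from left to right) with the mean and SD of the genotype (n = 4). *Fcrls* and *Siglech* separate the genotypes, *Tgfbr1*, *C1qc* and *Csf1r* overlap, and for *Fcgr3*, *Aif1* and *Cd68* a single sample, WT replicate 4, lies above all others.

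The 3 chains of C1q, the first component of the classical complement pathway, are encoded side by side within 18675 bases of chromosome 4. *C1qa* was at 46.5, 48.8, 40.2 and 38.8 CPM in WT replicates 1 to 4 and 43.3, 37.1, 38.5 and 41.03 CPM in Mvp KO replicates 1 to 4. *C1qb* was at 40.4, 41.4, 36.5 and 33.2 CPM in WT and 39.4, 31.2, 35.04 and 35.7 CPM in Mvp KO, and *C1qc* at 39.8, 40.4, 38.3 and 35.5 CPM in WT and 37.9, 31.7, 31.4 and 36.5 CPM in Mvp KO. For each chain WT replicates 1 and 2 were highest, WT replicate 4 was the lowest WT sample, and the genotypes overlapped. Log2 fold changes were -0.12 (standard error 0.0924) for *C1qa*, -0.10 for *C1qb* and -0.16 (standard error 0.0849) for *C1qc*, with unadjusted p of 0.213, 0.323 and 0.0847 by edgeR's quasi-likelihood test. Without WT replicate 4, every remaining WT sample of *C1qc* lay above every Mvp KO sample, as for *Fcrls* and *Siglech* (7.89% of members, against 1.49% of all genes), and its log2 fold change was -0.20 with an unadjusted p of 0.0346 in the same test. The chains varied together over the samples. *C1qa* and *C1qb* had a Pearson's r of 0.94 (exact permutation p = 0.000372, adjusted 0.00223) and a Spearman's rho of 0.95 (exact permutation p = 0.00114, adjusted 0.00685), and r was 0.94 without WT replicates 1 and 2 (exact permutation p = 0.0125, n = 6). *C1qa* and *C1qc* had r = 0.86 (exact permutation p = 0.009, adjusted 0.0184) and rho = 0.90 (exact permutation p = 0.00456, adjusted 0.00913). *C1qb* and *C1qc* had r = 0.84 (exact permutation p = 0.0092, adjusted 0.0184) and rho = 0.90 (exact permutation p = 0.00456, adjusted 0.00913). Without the 2 samples farthest from the median these fell to 0.80 and 0.67, with exact permutation p of 0.0583 and 0.132 at n = 6, so the relation of *C1qc* to the other chains rests in part on those samples. The samples of a genotype number 4, too few for a correlation within each.

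The 7 immunoreceptors, adaptors and signalling genes belong to pathways that read an immunoreceptor tyrosine-based motif. *Trem2*, the gene of a receptor for lipids and lipoproteins, was at 10.1, 11.6, 8.44 and 10.8 CPM in WT and 10.7, 9.903, 7.21 and 8.32 CPM in Mvp KO. *Tyrobp*, for the adaptor DAP12 that TREM2 signals through, was at 13.2, 14.6, 11.8 and 11.2 CPM in WT and 15.1, 10.4, 9.71 and 11.7 CPM in Mvp KO. Both were lowest in Mvp KO replicate 3, overlapped between the genotypes, and had a Pearson's r of 0.68 (exact permutation p = 0.0674, adjusted 0.0839) and a Spearman's rho of 0.60 (exact permutation p = 0.132, adjusted 0.181), with r = 0.46 without the 2 Mvp KO samples farthest from the median. *Fcer1g*, the common gamma chain of Fc receptors, was at 5.25, 5.23, 4.18 and 4.29 CPM in WT and 6.11, 4.58, 3.79 and 4.98 CPM in Mvp KO. *Plcg2*, the phospholipase C downstream of TREM2, was at 3.66, 3.18, 3.52 and 3.49 CPM in WT and 4.07, 3.55, 3.21 and 4.04 CPM in Mvp KO. For these 2 signalling genes the highest sample was Mvp KO replicate 1, and the means of Mvp KO were not below those of WT. *Inpp5d*, for the lipid phosphatase SHIP1 that restrains such signals, was at 16.4, 14.4, 17.1 and 12.8 CPM in WT and 11.5, 13.6, 17.4 and 16.4 CPM in Mvp KO. *Cd33*, a sialic acid-binding inhibitory receptor gene, was at 15.2, 13.1, 15.1 and 14.7 CPM in WT and 12.97, 14.5, 12.6 and 12.95 CPM in Mvp KO. *Cd33* had a log2 fold change of -0.13 (standard error 0.0914) with an unadjusted p of 0.193 by edgeR's quasi-likelihood test, and WT replicate 2 lay among the Mvp KO samples.

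*Fcgr3*, the gene of a low-affinity receptor for immunoglobulin G, had the largest fitted difference of the list, and 1 sample made it. Its expression was 15.6, 13.7, 13.7 and 45.3 CPM in WT replicates 1 to 4 and 12.7, 9.85, 12.5 and 14.3 CPM in Mvp KO replicates 1 to 4. WT replicate 4 was 3.31 times the median of the other 7 samples, and WT replicates 2 and 3 lay below Mvp KO replicate 4. The log2 fold change of -0.84 (standard error 0.384), unadjusted p 0.0566 by edgeR's quasi-likelihood test, became -0.21 (standard error 0.125, unadjusted p 0.1195 in the same test) without WT replicate 4.

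WT replicate 4 stood apart from the other samples in the whole transcriptome: its score on the first principal component was 71.5, and those of the others were between -20.4 and -2.78. It was kept, since the labels give no reason to leave it out. Among the members it was the highest of the 8 samples for 9 (23.7%, against 29.2% of all genes) and the lowest for 2, *Selplg* and *Itgb5* (5.26%, against 32.5% of all genes). For 3 members, *Fcgr3*, *Aif1* and *Cd68* (7.89%, against 9.53% of all genes), it was highest and at least 1.5-fold above the median of the others. The excess in WT replicate 4 was limited to a few members, and the summed level of the list there was 998 CPM, close to WT replicates 1 and 2. As a share of all counts the list was at 0.0905% in WT replicate 4, the lowest of the WT samples. Without WT replicate 4, the log2 fold change was below 0 for 33 of the 38 members (86.8%) against 48.3% of all genes, and its median over the members was -0.11. Then *Fcrls* and *C1qc* were lower with an unadjusted p under 0.05 by edgeR's quasi-likelihood test (5.26% of members, against 0.740% of all genes), 0 members were higher (against 103 of 17159 genes), and 0 members passed the adjustment.

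**Figure D4:**
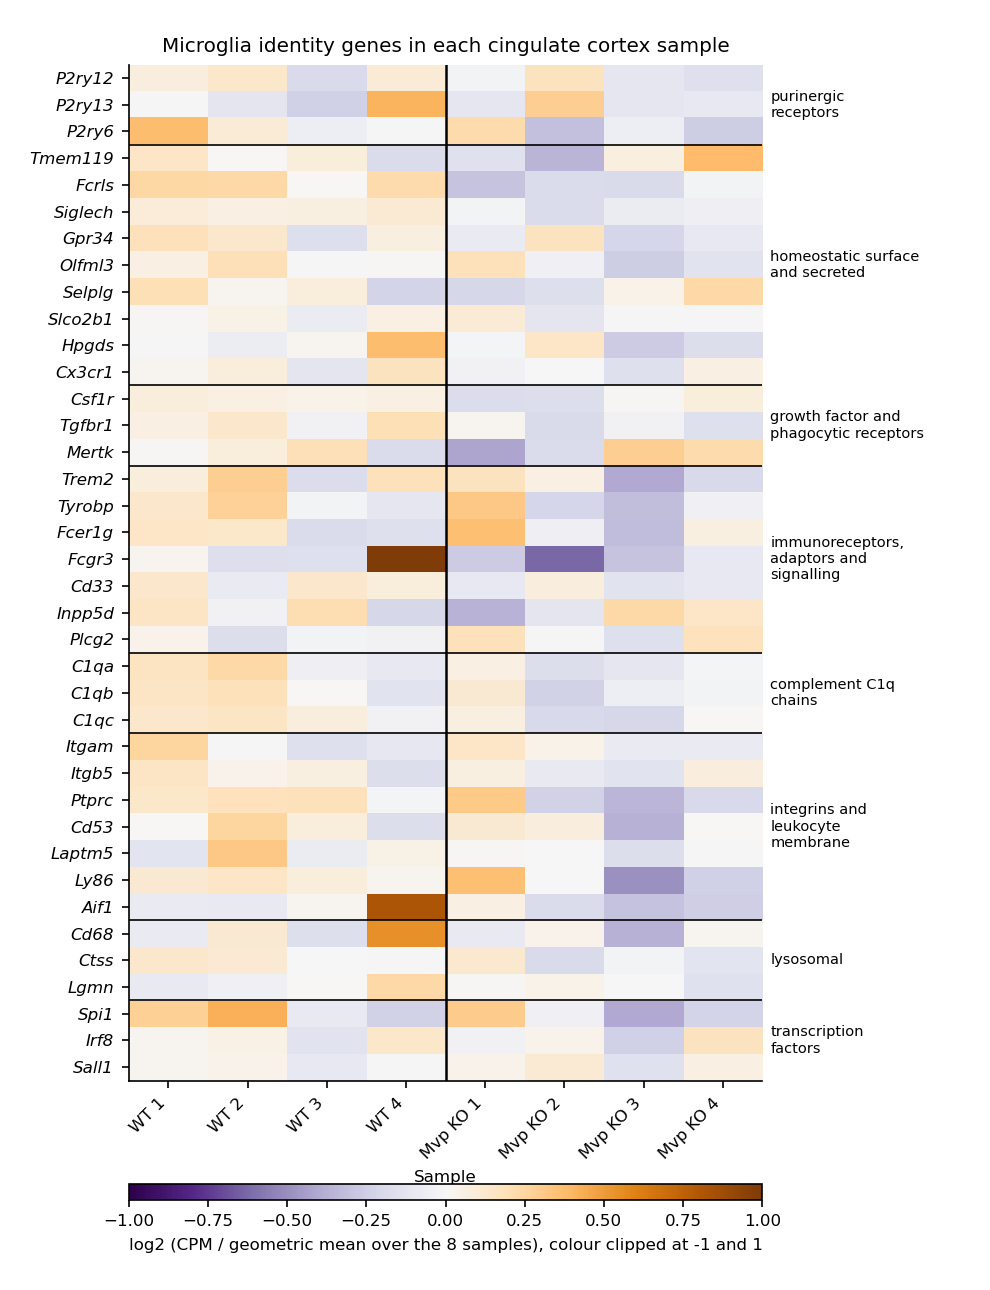
Log2 ratio of each microglia identity gene in each sample to its geometric mean over the 8 samples (orange higher, purple lower), in 8 groups by role. WT replicate 4 stands out for *Fcgr3* and *Aif1*, and Mvp KO replicate 3 holds the lowest value of 18 genes.

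Integrins and leukocyte membrane proteins made up 7 members. *Aif1*, for the actin-binding protein IBA1 by which microglia are usually stained, was at 6.02, 5.96, 6.48 and 11.2 CPM in WT and 6.61, 5.604, 5.16 and 5.37 CPM in Mvp KO. Again WT replicate 4 was alone at the top, and the log2 fold change of -0.38 (standard error 0.216), unadjusted p 0.111 by edgeR's quasi-likelihood test, became -0.11 without it. *Ptprc*, the gene of the leukocyte phosphatase CD45, was at 4.78, 4.905, 4.96 and 4.29 CPM in WT and 5.39, 3.72, 3.42 and 3.79 CPM in Mvp KO. Mvp KO replicate 1 was the highest of all samples for *Ptprc* and the other 3 Mvp KO samples lay below every WT sample. The same arrangement was seen in *Ly86*, for a partner of the toll-like receptor relative CD180, at 7.46, 7.599, 7.29 and 7.02 CPM in WT and 8.83, 6.88, 4.89 and 5.83 CPM in Mvp KO. *Cd53*, for a tetraspanin of leukocytes, was at 7.02, 8.36, 7.43 and 6.26 CPM in WT and 7.61, 7.41, 5.42 and 7.05 CPM in Mvp KO, and *Laptm5*, for a lysosomal membrane protein of leukocytes, at 13.1, 17.9, 13.6 and 14.8 CPM in WT and 14.5, 14.3, 12.8 and 14.2 CPM in Mvp KO. Both were lowest in Mvp KO replicate 3 and highest in WT replicate 2. *Itgam*, for the CD11b chain of complement receptor 3, was at 9.76, 8.08, 7.35 and 7.59 CPM in WT and 9.03, 8.405, 7.71 and 7.72 CPM in Mvp KO. *Itgb5*, an integrin chain that binds vitronectin, was at 36.1, 33.3, 33.97 and 28.9 CPM in WT and 33.98, 30.5, 29.5 and 34.2 CPM in Mvp KO. The genotypes of both integrin genes overlapped, with 95% intervals of the log2 fold change of -0.27 to 0.28 for *Itgam* and -0.25 to 0.15 for *Itgb5*.

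Of the 3 lysosomal genes, *Ctss* was at 83.9, 82.5, 76.6 and 75.98 CPM in WT and 83.3, 67.3, 75.4 and 70.2 CPM in Mvp KO. Its log2 fold change was -0.11 (standard error 0.0799), unadjusted p 0.212 by edgeR's quasi-likelihood test, with Mvp KO replicate 1 among the highest samples. *Lgmn* was at 109.9, 114, 118 and 138 CPM in WT and 118, 120.5, 117 and 106 CPM in Mvp KO, and *Cd68*, for a glycoprotein of phagocyte lysosomes, at 7.25, 8.29, 6.86 and 11.2 CPM in WT and 7.24, 7.85, 5.94 and 7.79 CPM in Mvp KO. WT replicate 4 was the highest sample for both. Without it the log2 fold change of *Lgmn* went from -0.05 to 0.02 and that of *Cd68* from -0.22 to -0.05.

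The 3 transcription factors were expressed at low levels or also in other cells. *Spi1*, which encodes PU.1, the factor that sets the myeloid fate, was at 2.54, 2.81, 1.96 and 1.78 CPM in WT and 2.57, 2.02, 1.58 and 1.79 CPM in Mvp KO. *Irf8*, which partners with PU.1, was at 3.86, 3.94, 3.46 and 4.19 CPM in WT and 3.72, 3.91, 3.24 and 4.28 CPM in Mvp KO. *Spi1* varied more between replicates than most members in both genotypes, and both genes overlapped. *Sall1*, for a zinc finger factor that microglia have and other macrophages lack, was at 18.3, 18.5, 16.9 and 18.03 CPM in WT and 18.6, 19.5, 16.4 and 18.9 CPM in Mvp KO. Its samples lay close together, with a 95% interval of the log2 fold change of -0.15 to 0.22.

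The genes around these members in the same pathways gave no call either. Of 62 such genes in 5 lists, 56 were tested, 0 passed an adjusted p of 0.05 by edgeR's quasi-likelihood test (adjusted after Benjamini and Hochberg), and 1 had an unadjusted p under 0.05, where 1.56% of all genes did. DESeq2's Wald test and limma voom, which each called 2 of 16914 genes, called 0 of these. An unadjusted p under 0.05 was given to 4 of 56 by DESeq2's Wald test (against 1.60% of all genes) and 3 of 56 by limma voom (against 3.25%). The gene with such a p in the edgeR fit was *Cd200r1*, for the receptor that quiets microglia on contact with neuronal CD200, at 0.649, 0.783, 0.634 and 4.22 CPM in WT and 0.474, 0.694, 0.579 and 0.491 CPM in Mvp KO. Only WT replicate 4 was high. Log2 fold changes were below 0 for 12 of 16 ligands and partners (median -0.04), 5 of 9 other complement genes (median -0.03) and 7 of 8 further transcription factors (median -0.10). They were below 0 for 11 of 15 other genes enriched in microglia (median -0.06) and 3 of 8 genes of activated microglia (median 0.08). Over the 56 genes 38 were below 0 (67.9%, against 50% of all genes). Without WT replicate 4 this held for 29 of 56, against 48.3% of all genes.

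The most abundant ligands and partners were *Apoe*, which astrocytes and activated microglia secrete as a lipid carrier and which TREM2 binds, *Cx3cl1*, the fractalkine gene, and *Sirpa*, the receptor of the signal CD47 against phagocytosis. *Apoe* was at 1065, 1112, 1050 and 919.8 CPM in WT and 1110, 989, 903 and 959 CPM in Mvp KO. *Cx3cl1* was at 670.1, 804, 782 and 825 CPM in WT and 639.8, 715, 794 and 853 CPM in Mvp KO, and *Sirpa* at 612, 598, 647 and 726 CPM in WT and 578, 562, 659.9 and 686 CPM in Mvp KO. All 3 overlapped. Among the other complement genes the highest CPM were those of *Csmd1* and *C4b*, with log2 fold changes of -0.03 and 0.35. Mvp KO replicate 1 was the highest sample for *C4b*. Of the further transcription factors, *Mef2c* (-0.03), *Mef2a* (-0.07) and *Maf* (-0.02) had the highest CPM, and neurons are known to express both MEF2 genes. Of the other microglia-enriched genes these were *Ctsd* (-0.14) and *Grn* (-0.03), whose products act in lysosomes.

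Of 14 genes of activated microglia, *Cst7*, *Clec7a*, *Ccl3*, *Ccl4*, *Tnf* and *Cxcl10* had too few reads to be tested. *Cst7*, known to go up in disease-associated microglia, had 25 counts over the 8 samples together, and *Itgax* 84. The highest CPM in this list were those of *Cd9*, *Csf2ra* and *Lpl*, which other brain cells express too. *Lpl*, for lipoprotein lipase, was at 26.4, 17.6, 18.03 and 3.33 CPM in WT and 19.7, 18.8, 17.5 and 18.8 CPM in Mvp KO, and *Gpnmb*, for a glycoprotein of lipid-laden phagocytes, at 2.36, 2.19, 2.07 and 10.99 CPM in WT and 1.85, 3.11, 2.52 and 2.28 CPM in Mvp KO. WT replicate 4 was the lowest sample for *Lpl* and the highest for *Gpnmb*, and WT replicate 1 was the highest for *Lpl*. WT replicate 4 was also high for *Tgfb1*, the ligand gene of TGFBR1, at 1.65, 1.43, 1.38 and 6.001 CPM in WT, and low for *Csf1*, a ligand gene of CSF1R, at 22.3, 20.4, 20.4 and 8.73 CPM in WT. In Mvp KO these 2 genes were at 0.832 to 1.65 CPM and 18.7 to 26.1 CPM.

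Most members are also expressed by macrophages at the borders of the brain or by blood leukocytes, so markers of those cells were read beside them. The 9 markers of border macrophages summed to 18.8 to 32.2 CPM in WT and 20.9 to 31.3 CPM in Mvp KO, most of it from *Stab1*. *Mrc1* was at 1.21 to 5.16 CPM and *Pf4* at 0.0318 to 0.649 CPM over the 8 samples. Of the 8 tested, 0 had an unadjusted p under 0.05 in the edgeR fit, and the lowest sum was that of WT replicate 4. The 12 markers of monocytes, neutrophils and lymphocytes summed to 0.508 to 1.77 CPM in WT and 0.447 to 3.17 CPM in Mvp KO, *Ccr2* alone could be tested, and *Camp* had 0 counts in every sample. The members' own sum was 878 to 998 CPM. These sums are of different genes, so they do not measure how much of the members' RNA those cells supplied, which was not tested. The highest leukocyte and oligodendrocyte sums were both those of Mvp KO replicate 1, where *Ptprc*, *Ly86*, *Tyrobp* and *Fcer1g* also had their highest values, and their part in these values was not tested. The median log2 fold change of the 8 border macrophage markers tested was -0.18 with all samples and -0.33 without WT replicate 4. That of the 6 astrocyte markers was -0.13 with all samples and -0.14 without WT replicate 4, about that of the members in both. For the 6 neuron markers it was -0.17 with all samples and -0.01 without WT replicate 4, and for the 6 endothelial markers -0.06 with all samples and -0.15 without WT replicate 4. The 5 oligodendrocyte markers had a median of 0.67 with all samples and 0.52 without WT replicate 4, and the 5 red blood cell genes of 0.04 with all samples and -0.24 without WT replicate 4. Leaving out this sample for the lists of other cells was chosen after seeing the data.

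**Figure D5:**
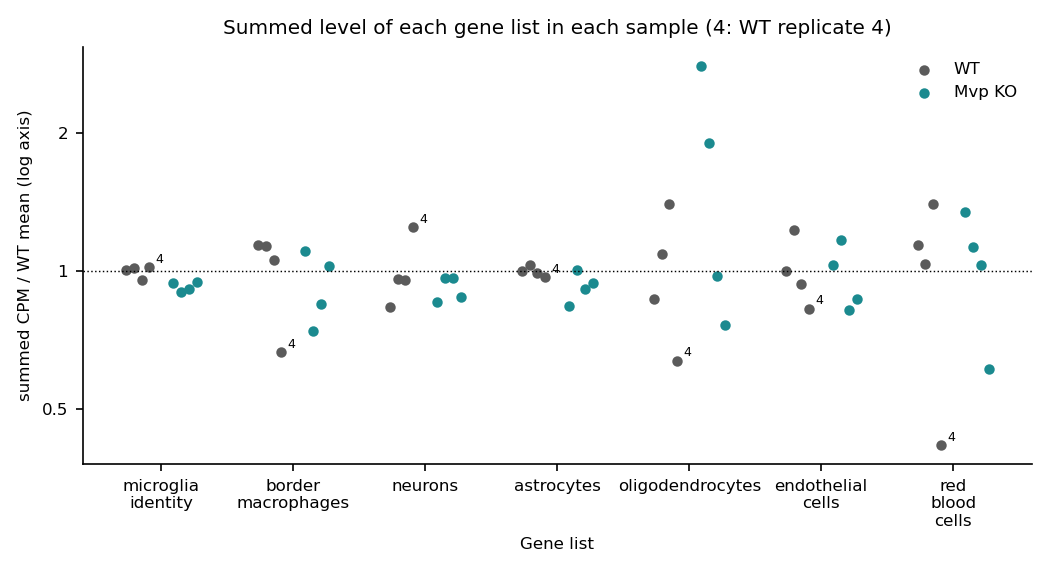
Summed CPM of the microglia identity genes and of 6 marker lists (border macrophages, neurons, astrocytes, oligodendrocytes, endothelial cells and red blood cells) in each sample, divided by the WT mean of the list, on a log axis, with WT (grey) and Mvp KO (teal) and WT replicate 4 marked 4. Of the lists drawn, the microglia sums vary least, with Mvp KO from 878 to 926 CPM and WT from 934 to 998 CPM before division, and the oligodendrocyte sums most among the Mvp KO samples.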

How the data were processed

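The authors trimmed the single-end reads with cutadapt 1.10, filtered them with Bowtie2 2.2.8, aligned them to mm10 with STAR 2.5.3a and counted them per Ensembl release 91 gene with HTSeq 0.6.1p1. They deposited 1 table of raw counts, not normalized. The counting mode and strand setting are not given in the sources used here. Gene names and positions came from GENCODE vM21, which held 53274 of the 53379 identifiers.

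In R 4.3.3, edgeR 4.0.16 kept genes by filterByExpr (minimum count 10, minimum total 15), scaled libraries by TMM and fitted genotype alone with robust quasi-likelihood. Adjustment followed Benjamini and Hochberg, for every tested gene, at a threshold of 0.05. The CPM are counts over TMM-scaled library sizes. Alternatives were DESeq2 1.42.0, limma 3.58.1 voom with sample weights, DESeq2 size factors, 2 other filters, the replicate number as a block, and leaving out each sample. The main fit and alternatives were tested on simulated data, with only WT replicate 1 and Mvp KO replicate 1 tried as the sample left out. The main fit recovered 33.9% of simulated 1.5-fold changes and 71.8% of 2-fold changes, so changes of 1.5-fold were often missed. False calls were at 9.79% in the main fit, 9.72% with limma voom and 27.1% with DESeq2's Wald test. Correlations of 6 fixed pairs used all 40320 orders of the samples in an exact permutation test. Chi-square per gene between samples of a genotype ran from 7.00 to 95.6, so no library was counted as a repeat of another. Values per sample are given for all members, and full statistics for *Mvp* and the 10 members with the smallest p. In the other lists, genes with an unadjusted p under 0.05 and up to 3 with the highest CPM were named by rule, and the others named there were chosen after their values were seen. Some genes of the other lists are not reported here and enter none of their counts and sums. The members and lists were chosen with earlier results of these data known. Python 3.11.15 with SciPy 1.17.1 and matplotlib 3.10.9 was used for the rest.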

Additional observations from a re-analysis of the deposited data

Results flagged for a closer look

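In 80 groups of 4 samples (the 38 members, *Mvp* and the members' sum, in each genotype), the distance of the highest and of the lowest sample from the next was set against the spread of all 4. In 7 groups 1 sample stood further apart than Dixon's 95% limit, where chance alone would give about 4, 1 in 20.

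WT replicate 4 was the high sample for *Fcgr3* (45.3 CPM, the others 13.7 to 15.6), *Aif1* (11.2 CPM, the others 5.96 to 6.48) and *Hpgds* (10.5 CPM, the others 7.76 to 8.21). Mvp KO replicate 2 was high for *P2ry13* (13.4 CPM, the others 10.2 to 10.3) and Mvp KO replicate 3 low for *Laptm5* (12.8 CPM, the others 14.2 to 14.5). For *Fcrls*, WT replicate 3 was low at 24.0 CPM (the others 27.9 to 28.2), and it was the WT sample nearest to Mvp KO. *Mvp* was highest among the Mvp KO samples in replicate 3, at 2.13 CPM (the others 1.44 to 1.51).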

How the results depend on the processing

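No member passed the adjusted p of 0.05 in any alternative (lowest 0.846), where 0 to 2 of all genes did. The count of members below 0 stayed between 31 and 35, their median between -0.13 and -0.07 and the count with an interval within 1.5-fold between 29 and 35, over all alternatives. The sign changed in some fit for 13 members, *P2ry13*, *Tmem119*, *Selplg*, *Slco2b1*, *Mertk*, *Fcer1g*, *Inpp5d*, *Itgam*, *Cd53*, *Laptm5*, *Lgmn*, *Irf8* and *Sall1*, while 24 were lower in every fit and *Plcg2* higher in every fit. Members with an unadjusted p under 0.05 numbered 4 with DESeq2's Wald test, 5 with limma voom, 1 without a filter and 1 to 4 with a sample left out, where 1.60%, 3.25%, 1.81% and 1.13% to 2.75% of all genes had one. For pathway genes the numbers were 4, 3, 0 and 0 to 3, and 0 with at least 10 counts in every sample (1.41% of all genes). The number of such members was 1 without Mvp KO replicate 2, 1 without Mvp KO replicate 3 and 4 without Mvp KO replicate 1. As a share of all counts without TMM, chosen after seeing the data, the summed level in Mvp KO was 0.958 times that in WT, against 0.927 with TMM. The cause was not tested.

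The labels do not say whether equal replicate numbers mark paired samples. Deviations of equally numbered samples from their genotype means correlated at -0.0067 to 0.287, above 0.1 for replicate 2 only. With so few samples per genotype, these values cannot tell whether the samples were paired. With the replicate block, 2 members and 2 pathway genes had an unadjusted p under 0.05 (1.94% of all genes), and the log2 fold change of *Mvp* was -2.07 with an adjusted p of 0.085. With a sample left out it ran from -2.22 to -1.99, and its adjusted p exceeded 0.05 in 6 of 8 fits.

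With a sample left out, r ran from 0.93 to 0.96 for *C1qa* and *C1qb*, 0.81 to 0.92 for *C1qa* and *C1qc*, 0.75 to 0.94 for *C1qb* and *C1qc*, 0.56 to 0.84 for *P2ry12* and *P2ry13*, 0.48 to 0.80 for *Trem2* and *Tyrobp*, and 0.16 to 0.38 for *Csf1r* and *Cx3cr1*. The adjusted exact permutation p rose above 0.05 for *C1qb* and *C1qc* without WT replicate 1 or 2 or Mvp KO replicate 2, and for *C1qa* and *C1qc* without the last. It went below 0.05 for *P2ry12* and *P2ry13* without WT replicate 2 or 4, and for *Trem2* and *Tyrobp* without WT replicate 4. Without the 2 farthest samples (n = 6) it was 0.075 to 0.248 for the C1q pairs.

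The lowest count of a member in a sample was 46. How much of the spread between samples comes from counting was not tested.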
